A study of Mus musculus with 12 samples.

Results

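The microRNAs (miRNAs) mmu-miR-99a, mmu-miR-99b, mmu-miR-100, mmu-miR-125a-5p and mmu-miR-125b-5p (written below without mmu, the prefix for mouse) were taken by their names in the scanner files and are 5 of the 611 mouse miRNAs on the array. All 5 were detected on all 12 arrays, and all 5 were among the 157 miRNAs tested. The cells were 3T3-L1, a line of mouse fibroblasts widely used as a model of fat cell formation, profiled on single-colour arrays in 4 groups of 3. Lithium plus MDI cells received both lithium chloride at 25 mM and the differentiation medium MDI. MDI cells received that medium (isobutylmethylxanthine, dexamethasone and insulin) for 3 days, insulin alone for 2 days and plain medium for 2 days, ending on day 7. Lithium cells had the same 25 mM of lithium chloride without MDI, and preadipocytes received neither agent. A time course is recorded in these sources for the MDI medium, and no end day for the other groups, so days in culture and treatment cannot be told apart. In the submitters' design, lithium, which inhibits the kinase GSK3, models activated WNT signalling and MDI models suppressed WNT signalling. The labels do not say whether replicates were separate cultures; p-values thus reflect only how these samples vary among themselves, and that variation may be technical.

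A miRNA guides Argonaute proteins to messenger RNAs, which are then repressed, mostly through pairing with its seed, bases 2 to 8 from the 5′ end. The miR-99 and miR-100 family is known, from human cells, for repressing MTOR and IGF1R of the insulin and growth factor pathway. The miR-125 family is the vertebrate counterpart of worm lin-4. Both families are encoded beside let-7 genes, whose miRNAs act in developmental timing and differentiation, and let-7 processing is blocked by the LIN28 proteins.

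The mature sequences are shown because the 5 miRNAs fall into 2 seed families whose members differ by few bases, which bears on what a probe can tell apart. All 5 matched an entry of RefSeq (build GRCm38.p6). Array names without an arm were read as the 5p strand. Sequences run 5′ to 3′ with the seed in capitals.
miR-99a: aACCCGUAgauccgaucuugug
miR-100: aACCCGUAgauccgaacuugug
miR-99b: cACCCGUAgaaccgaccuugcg
miR-125a-5p: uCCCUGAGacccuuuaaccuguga
miR-125b-5p: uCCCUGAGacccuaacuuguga
let-7c: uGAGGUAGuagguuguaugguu
let-7e: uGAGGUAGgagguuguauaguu
let-7a: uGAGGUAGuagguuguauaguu

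With positions counted from 1 at the 5′ end, miR-99a and miR-100 differ at 1 of 22 bases, U16A, written with the base of miR-99a first. miR-99a and miR-99b differ at 4 bases, A1C, U11A, U16C and U21C. miR-125b-5p and miR-125a-5p share their first 13 bases.

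The genes lie in 3 clusters, each on the plus strand and each with 1 gene of the miR-99 and miR-100 family, 1 let-7 gene and 1 miR-125 gene. On chromosome 16, Mir99a (mature strand at chr16:77598940-77598961), Mirlet7c-1 (chr16:77599672-77599693) and Mir125b-2 (chr16:77646279-77646300) span 47.4 kb. On chromosome 17, Mir99b (chr17:17830194-17830215), Mirlet7e (chr17:17830366-17830387) and Mir125a (chr17:17830817-17830840) span 683 bases inside the protein-coding gene Spaca6. On chromosome 9, Mir100 (chr9:41531437-41531458), Mirlet7a-2 and Mir125b-1 (chr9:41581940-41581961) span 50.6 kb, and Mir100 and Mir125b-1 lie within the long noncoding RNA gene Mir100hg. The miR-125b-5p sequence has 2 genomic copies, on chromosomes 9 and 16, so its signal cannot be assigned to either cluster.

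The arrays detected 126 to 175 miRNAs each. Markers of the labelled cell type were present, with 6 of 6 mesenchymal miRNAs detected on at least 1 array and 5 of them on all 12. Of 5 miRNAs linked to fat cells, 3 were detected on all 12 arrays, miR-210 on 11 and miR-378 on 4. Of 22 marker miRNAs of epithelium, muscle, blood, neural tissue, liver and endothelium, 2 were detected on any array, the epithelial miR-205 on 3 and the neural miR-128 on 7. The array holds no messenger RNA, so fat cell genes were not measured. Slide 1 held the 3 preadipocyte arrays and MDI array 1, and slide 2 held the other 8. Lithium plus MDI array 3, lithium array 1 and preadipocyte array 3 stood apart: over the 157 tested miRNAs they had the 3 lowest mean correlations with their own group (r = 0.924, 0.942 and 0.939), and each correlated better with another group (0.965 with the preadipocytes, 0.960 with MDI and 0.957 with lithium). The next lowest was lithium plus MDI array 2 (0.944), and for it, lithium plus MDI array 1 and MDI array 1 the highest mean correlation was also to a different group, so the line between these 3 arrays and the rest is not sharp. Results are given with and without the 3. The 3 were picked from the arrays' own values, so leaving them out narrows the spread by construction, and p-values without them are too small.

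miR-99a varied most of the 5 and had its lowest values in MDI cells and in lithium plus MDI arrays 1 and 2. The normalized log2 signal (log2 of a probe's signal over its array's 75th percentile, so a level of 0 equals that percentile) of miR-99a was -2.20, -2.53 and -0.15 on lithium plus MDI arrays 1, 2 and 3 and -2.45, -1.92 and -2.88 on the MDI arrays. On the lithium arrays it was -1.59, 0.12 and 0.13, and on the preadipocyte arrays -0.85, -0.94 and 0.98. The MDI and preadipocyte ranges did not overlap. In each of the other groups 1 array lay far from its fellows: lithium plus MDI array 3 was 2.21 above the mean of the other two of its group, lithium array 1 was below by that measure at -1.71, and preadipocyte array 3 was 1.87 above. These are the 3 arrays that stood apart. The pooled SD of miR-99a within groups was 1.00, rank 153 of 157 from the smallest, against a median of 0.42 over all tested miRNAs.

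miR-99b and miR-125a-5p, encoded within a span of 683 bases on chromosome 17, had their lowest values on the 4 arrays where miR-99a was highest. The log2 signal of miR-99b was -0.36, -0.42 and -1.45 on the lithium plus MDI arrays and -0.60, -0.90 and -0.84 on the MDI arrays. It was -1.01, -1.93 and -2.04 on the lithium arrays and -0.36, -0.69 and -1.75 on the preadipocyte arrays. Lithium arrays 2 and 3, preadipocyte array 3 and lithium plus MDI array 3 were thus the lowest 4, and every pair of neighbouring groups overlapped. For miR-125a-5p the values were -0.11, 0.14 and -1.11 on the lithium plus MDI arrays and -0.13, -0.27 and -0.10 on the MDI arrays. They were 0, -1.47 and -1.45 on the lithium arrays and -0.15, -0.12 and -0.76 on the preadipocyte arrays. The same 4 arrays were the lowest, and the neighbouring groups again overlapped. The pooled SD was 0.56 for miR-99b and 0.57 for miR-125a-5p.

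miR-100, which differs from miR-99a by U16A, was among the steadiest miRNAs tested on its brighter probe, with a pooled SD of 0.14 (rank 2 of 157), but not on its dimmer probe, where the pooled SD was 0.35. Its log2 signal was -2.11, -2.08 and -2.07 on the lithium plus MDI arrays and -2.50, -2.08 and -2.23 on the MDI arrays. It was -2.08, -2.06 and -2.25 on the lithium arrays and -1.84, -1.94 and -1.63 on the preadipocyte arrays. All 3 preadipocyte arrays lay above the other 9. Over the 12 arrays miR-100 spanned 0.86 and miR-99a 3.86 on the log2 scale, so the brighter probes of these near-identical miRNAs moved by unequal amounts. Their log ratio within an array had an SD of 1.15, which mostly reflects miR-99a alone. Their Pearson r was 0.58 (Spearman rho 0.56). It was 0.18 without the 2 arrays farthest out on miR-100 and 0.28 without the 2 farthest out on miR-99a. The probe sequences are not in the scanner files, and cross-hybridization between miR-99a and miR-100 was not tested.

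miR-125b-5p lay between 2.77 and 3.44 on every array except 2 lithium arrays. Its log2 signal was 3.18, 3.44 and 2.77 on the lithium plus MDI arrays and 3.43, 3.09 and 3.21 on the MDI arrays. It was 3.32, 2.30 and 2.29 on the lithium arrays and 3.34, 2.98 and 3.29 on the preadipocyte arrays. Lithium arrays 2 and 3 were the lowest of the 12, while lithium array 1 lay within the range of the other groups. The pooled SD was 0.36.

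**Figure D1:**
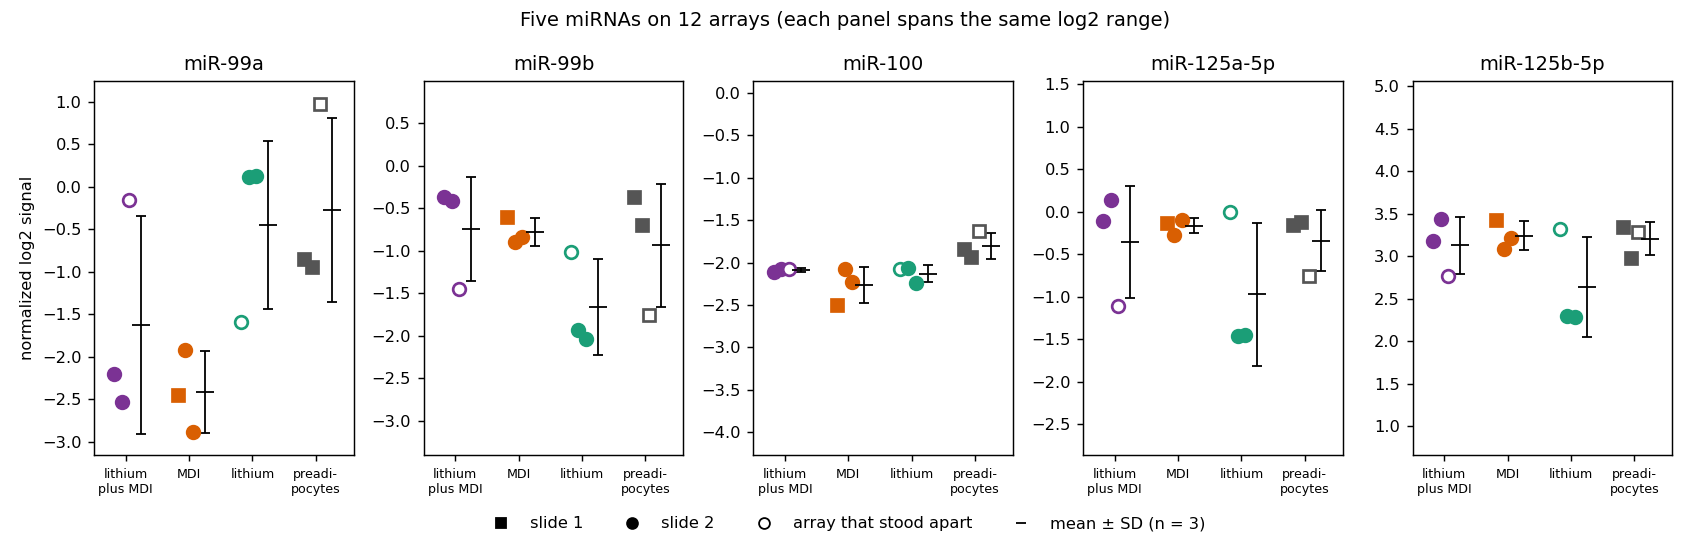
Normalized log2 signal of the 5 miRNAs (vertical axes, each spanning the same log2 range) on each array of the 4 groups; squares are slide 1, circles slide 2, open symbols the 3 arrays that stood apart, and bars the mean ± SD (n = 3). The open symbols lie far from their group for miR-99a and miR-99b and close to it for miR-100.

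Ordered by mean level, groups were mostly not separable from their neighbours. For miR-99a the order from low to high was MDI (-2.42 ± 0.48), lithium plus MDI (-1.62 ± 1.29), lithium (-0.45 ± 0.99) and preadipocytes (-0.27 ± 1.08; SD, n = 3 each), with overlap at every step. miR-99b ran from lithium (-1.66 ± 0.57) through preadipocytes (-0.93 ± 0.72) and MDI (-0.78 ± 0.16) to lithium plus MDI (-0.75 ± 0.61), and again each step overlapped. Both miR-125 members had their lowest mean in lithium cells and their highest in MDI cells, with overlap throughout. One neighbouring step of the 15 over the 5 miRNAs did not overlap, that of miR-100, at -2.09 ± 0.020 in lithium plus MDI cells and -1.81 ± 0.16 in preadipocytes. This held on its brighter probe only. On the dimmer probe these groups overlapped, at -3.41 ± 0.45 and -3.40 ± 0.25.

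MDI induction was compared with preadipocytes first. miR-99a had the lowest difference of all 157 miRNAs and miR-100 was lower on every MDI array than on any preadipocyte array, while miR-99b, miR-125a-5p and miR-125b-5p had differences near that of the median miRNA. None of the 5 passed an adjusted p of 0.05 in limma, which 5 of the 157 tested miRNAs did (3.18%). One of the 5 had an unadjusted p under 0.05, as did 17.8% of all tested. The miR-99a signal differed by -2.14 on the log2 scale in MDI cells (SE 0.67, 4.42-fold lower, 95% interval -3.59 to -0.70, limma adjusted p = 0.0830). miR-100 differed by -0.46 (SE 0.22, adjusted p = 0.290) on its brighter probe, and by -0.0053 on its dimmer probe, where the groups overlapped. Values that follow are again from the brighter probes. The groups did not overlap, MDI lower, for 2 of the 5, as for 10.8% of all tested miRNAs. The exact permutation p was 0.10 for both, the smallest that 3 arrays against 3 can give. The remaining differences were 0.16 for miR-99b, 0.18 for miR-125a-5p and 0.038 for miR-125b-5p, beside a median of 0.10 over all tested miRNAs, with intervals reaching from -0.73 to 1.04, -0.72 to 1.07 and -0.63 to 0.71. In bulk RNA such as this, fewer cells carrying a miRNA and less of it per cell cannot be told apart.

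The miR-99a difference kept its direction in all alternatives run, between -3.05 and -1.52, but its call did not hold still. It passed without lithium plus MDI array 3, which enters only through the shared spread (adjusted p = 0.0262), with 11.5% of all tested, and with only the 2 groups in the fit (adjusted p = 0.0450), with 7.01%. Without preadipocyte array 3 the difference was -1.52 (adjusted p = 0.184). On the 9 arrays left when the 3 that stood apart were removed it was -1.52, with means of -2.42 in MDI cells and -0.89 in preadipocytes (adjusted p = 0.00344), in a fit where 24.2% of all tested miRNAs passed. With slide as a block the difference was -2.18 (adjusted p = 0.286), which by construction is the difference within slide 1, MDI array 1 alone against the 3 preadipocyte arrays (adjusted p = 0.456 when slide 1 was fitted alone).

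Lithium against preadipocytes compares cells with and without lithium, all without MDI. The lithium arrays all lay on slide 2 and the preadipocyte arrays on slide 1, so lithium and slide cannot be told apart between these groups. The means of all 5 miRNAs were lower in lithium cells, as for 54.8% of all tested, by little for miR-99a, and none passed in limma, where 6.37% of all tested miRNAs did; none of the 5 had an unadjusted p under 0.05, against 22.3% of all tested. The differences were -0.73 for miR-99b (SE 0.41, adjusted p = 0.307), -0.63 for miR-125a-5p (SE 0.41, adjusted p = 0.355) and -0.57 for miR-125b-5p (SE 0.31, adjusted p = 0.296). miR-100 differed by -0.32 (SE 0.22, adjusted p = 0.375), and miR-99a by -0.17 (SE 0.67, adjusted p = 0.881). The groups did not overlap, lithium lower, for miR-100 alone of the 5, as for 12.7% of all tested miRNAs. The members' median difference was -0.57, beside -0.065 for all tested. On the dimmer probes the differences were -0.57 for miR-99b, -0.12 for miR-125a-5p, -0.16 for miR-125b-5p, -0.68 for miR-100 and -0.081 for miR-99a. There the miR-100 groups overlapped.

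The comparison leans on which arrays are kept. Without the 3 arrays that stood apart, lithium arrays 2 and 3 were set against preadipocyte arrays 1 and 2. miR-99b then differed by -1.46 (means -1.99 in lithium cells and -0.53 in preadipocytes, adjusted p = 0.00116), miR-125a-5p by -1.32 (adjusted p = 0.00116) and miR-125b-5p by -0.87 (adjusted p = 0.00853). miR-99a turned its sign, at 1.02 (means 0.13 in lithium cells and -0.89 in preadipocytes, adjusted p = 0.0157). So 4 of the 5 passed, in a fit where 52.9% of all tested miRNAs passed. Leaving out lithium array 1 alone gave -0.91 for miR-125b-5p (adjusted p = 0.0428), where 16.6% of all tested passed, and 0.40 for miR-99a, and leaving out preadipocyte array 3 alone gave 0.45 for miR-99a, in neither case past the threshold. No slide holds both groups, so within-slide values do not exist for lithium against preadipocytes. With slide as a block, the MDI arrays being the only link, differences were between -0.67 and -0.22 and none passed.

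MDI within lithium-treated cells was read as lithium plus MDI against lithium. miR-99b, miR-125a-5p and miR-125b-5p had higher means in lithium plus MDI cells and miR-99a a lower one, without passing the test. miR-99b differed by 0.92 (SE 0.41, limma adjusted p = 0.152), the 1 member with an unadjusted p under 0.05, which 30.6% of all tested miRNAs had. The differences were 0.61 for miR-125a-5p (adjusted p = 0.312), 0.49 for miR-125b-5p (adjusted p = 0.282), 0.042 for miR-100 (adjusted p = 0.884) and -1.18 for miR-99a (SE 0.67, adjusted p = 0.235). The miR-100 value holds for its brighter probe only. Its dimmer probe gave 0.66, with overlap of the groups. At an adjusted p of 0.05 neither the 5 nor any other tested miRNA passed in limma (0%), and the median of all tested was 0.39. No member's groups were free of overlap, against 33.8% of all tested. All 6 arrays lie on slide 2, and fitted there alone no member passed.

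Without the 3 arrays that stood apart, 4 of the 5 passed, with 56.1% of all tested miRNAs. miR-99a was at -2.36 in lithium plus MDI cells and 0.13 in lithium cells, a difference of -2.49 (adjusted p = 0.000449). miR-99b differed by 1.60 (adjusted p = 0.000458), miR-125a-5p by 1.47 (adjusted p = 0.000458) and miR-125b-5p by 1.01 (adjusted p = 0.00406), while miR-100 did not pass. Single arrays moved the call too. Without lithium plus MDI array 3, miR-99a (-1.92, adjusted p = 0.0441) and miR-99b (1.27, adjusted p = 0.0436) passed, with 24.2% of all tested. Without lithium array 1, miR-125a-5p (1.099) and miR-125b-5p (0.83) passed (adjusted p = 0.0491 for both), with 20.4% of all tested.

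Lithium within MDI-induced cells was read as lithium plus MDI against MDI. The differences were 0.79 for miR-99a (SE 0.67, 95% interval -0.65 to 2.24, adjusted p = 0.783) and between -0.19 and 0.18 for the rest. No miRNA of the 157 passed in limma (0%), and 3.82% had an unadjusted p under 0.05, none of them a member. No member's groups were free of overlap, against 12.1% of all tested. Without lithium plus MDI array 3 the miR-99a difference was 0.055.

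The interaction takes the MDI difference in lithium-treated cells and subtracts that in cells without lithium. It was above 0 for all 5, as for 65.6% of all tested miRNAs. Its values were 0.97 for miR-99a, 0.76 for miR-99b, 0.50 for miR-100, 0.44 for miR-125a-5p and 0.45 for miR-125b-5p (adjusted p 0.408 to 0.750), beside a median of 0.26 for all tested. None of the 157 passed in limma (0%), and 22.3% had an unadjusted p under 0.05, none of them a member. On the 9 arrays without the 3 that stood apart it was 1.85 for miR-99b (adjusted p = 0.00206), 1.50 for miR-125a-5p (adjusted p = 0.00284) and 0.93 for miR-125b-5p (adjusted p = 0.0288), where 43.9% of all tested passed. miR-99a then stood at -0.96 (adjusted p = 0.0781).

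**Figure D2:**
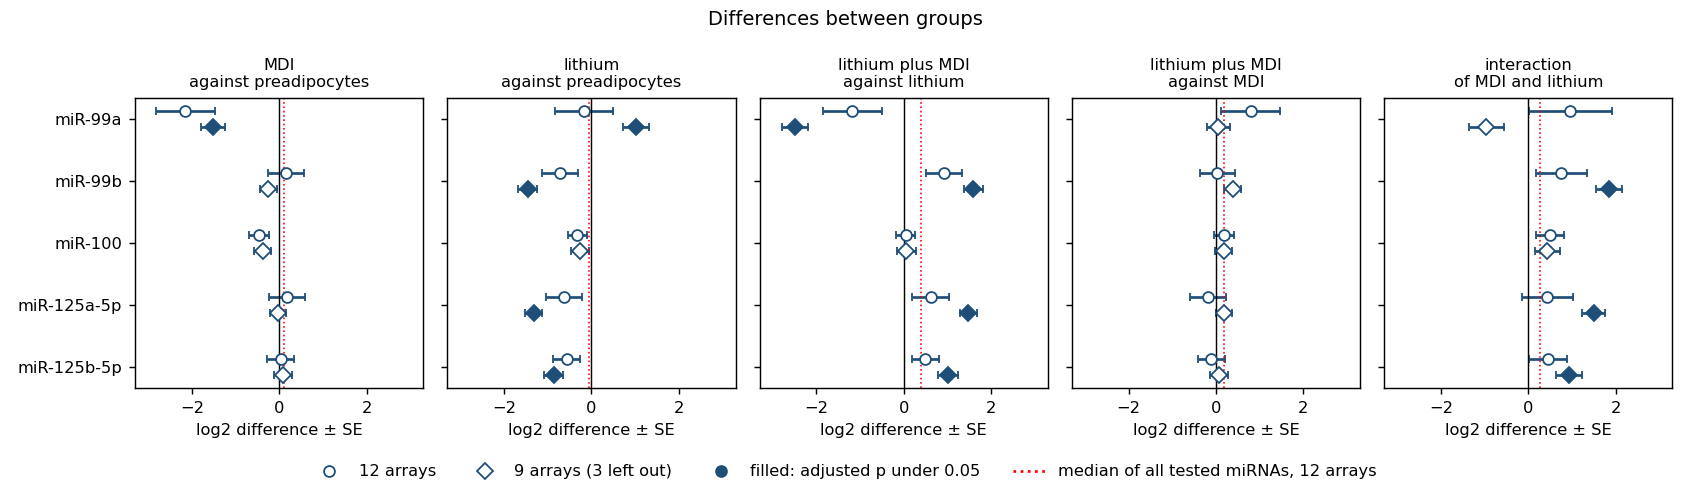
Log2 difference ± SE (horizontal axes) of the 5 miRNAs in the 4 comparisons and the interaction, from limma on all 12 arrays (circles) and without the 3 arrays that stood apart (diamonds); filled symbols have an adjusted p under 0.05, and the dotted line is the median of all 157 tested miRNAs on 12 arrays. No circle is filled, and the miR-99a diamond lies on the other side of 0 from its circle for lithium against preadipocytes and for the interaction.

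The scaling sets the sign of several small differences. When arrays were divided by the 75th percentile over all mouse probes, the median of all tested miRNAs in MDI against preadipocytes was -0.64, and miR-99a at -2.96 and miR-100 at -1.27 passed (adjusted p = 0.00961 for both), with 30.6% of all tested. Under that scaling the median in lithium against preadipocytes was -0.90, and miR-99b, miR-100, miR-125a-5p and miR-125b-5p passed as lower, with 49.7% of all tested. With no scaling at all, miR-99a, miR-100 and miR-125b-5p passed as lower in MDI against preadipocytes (39.5% of all tested passed), and all but miR-99a passed as lower in lithium against preadipocytes (47.1%) and as above 0 in the interaction (38.9%).

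Each miRNA has 2 probes of 10 spots each, and values above come from the brighter one. The probes moved together for miR-99a (r = 0.992 over 12 arrays), miR-99b (r = 0.993), miR-125a-5p (r = 0.911) and miR-125b-5p (r = 0.852). The dimmer miR-99a probe gave -1.99 in MDI against preadipocytes, beside -2.14 for the brighter. The size of the miR-125 differences depended on the probe. In lithium against preadipocytes the dimmer probes gave -0.12 for miR-125a-5p and -0.16 for miR-125b-5p, beside -0.63 and -0.57 for the brighter. In MDI against preadipocytes they gave 0.53 and 0.32, beside 0.18 and 0.038. The miR-100 probes disagreed, with r = 0.157. On the dimmer miR-100 probe the log2 signal was -3.22, -3.09 and -3.93 on the lithium plus MDI arrays and -3.66, -3.27 and -3.29 on the MDI arrays. It was -3.59, -4.36 and -4.28 on the lithium arrays and -3.25, -3.28 and -3.69 on the preadipocyte arrays. Its lowest 4 arrays were the 4 that were lowest for miR-99b and miR-125a-5p. That probe gave differences of -0.0053 in MDI against preadipocytes and -0.68 in lithium against preadipocytes, where the brighter gave -0.46 and -0.32, so the MDI difference was not seen on both probes, while in lithium cells both were lower by unequal amounts. The median signal of the dimmer miR-100 probe was 33.1 on the scanner's linear scale, and it was well above background on all 12 arrays.

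**Figure D3:**
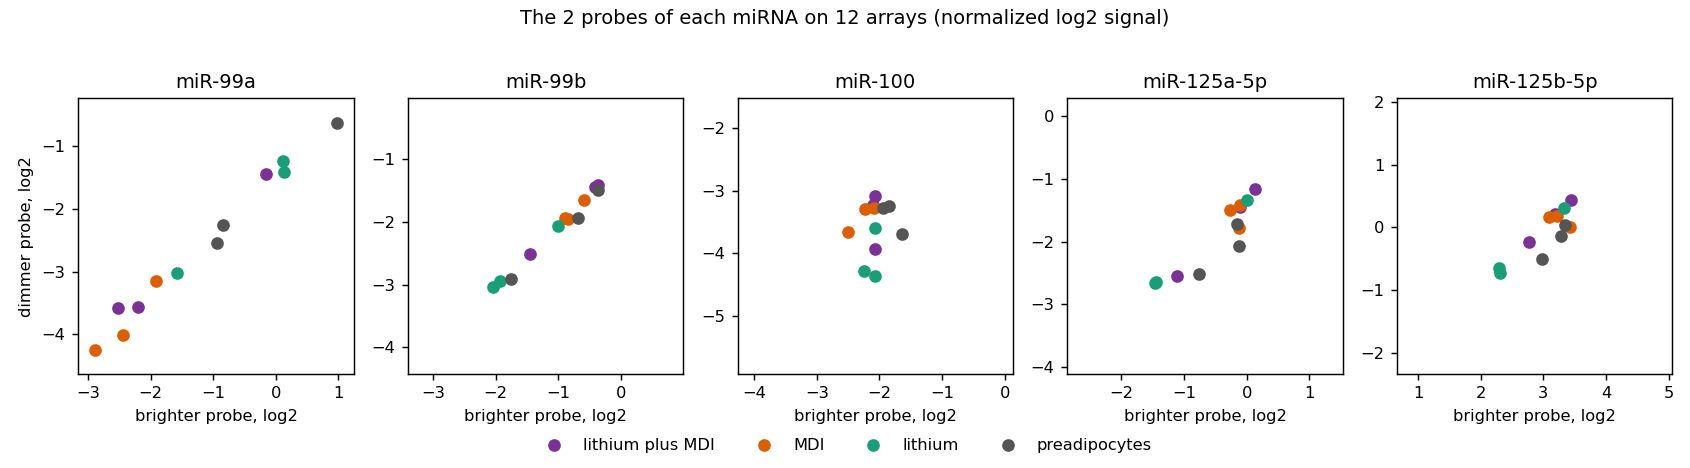
Normalized log2 signal of the dimmer probe (vertical) against the brighter probe (horizontal) of each miRNA on the 12 arrays, coloured by group, with all axes spanning the same log2 range. The points follow a line for miR-99a (r = 0.992) and form a vertical band for miR-100 (r = 0.157).

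Across arrays, miRNAs encoded in 1 cluster were set beside each other; all points share arrays, scaling and slides, so the correlations are descriptions. Of all tested non-members, let-7c had the highest Pearson r with miR-99a over the 12 arrays (0.93, Spearman rho 0.92). Let-7c is encoded in the chromosome 16 cluster and, with the same mature sequence, by Mirlet7c-2 on chromosome 15, so its signal cannot be assigned to either. The value rests largely on 4 arrays that were the highest for both miRNAs, namely lithium plus MDI array 3, lithium arrays 2 and 3 and preadipocyte array 3. Within the other 8 arrays, a split made after seeing the data, r was 0.69. Let-7c was at 0.72, 0.45 and 1.35 on the lithium plus MDI arrays, 0.013, 0.65 and 0.34 on the MDI arrays, 0.74, 1.65 and 1.85 on the lithium arrays, and 0.66, 0.85 and 2.07 on the preadipocyte arrays. All 3 MDI arrays were lower than the 3 preadipocyte arrays (difference -0.86, SE 0.41, adjusted p = 0.290), as for 10.8% of all tested miRNAs. The gap was narrow, with the highest MDI value at 0.65 and the lowest preadipocyte value at 0.66. Next by r over the 12 arrays were miR-146b (0.88, and 0.53 within the 8) and miR-193b (0.84, and 0.57 within the 8).

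miR-125b-5p, with 1 of its copies in the same cluster, did not rise with miR-99a over the 12 arrays (r = -0.58). Their log ratio within an array spanned 3.94, but miR-99a alone spanned 3.86, so that span says little about the pair. The log ratio of miR-99a to let-7c spanned 2.14 (SD 0.70). In the chromosome 17 cluster the log ratio of miR-99b to miR-125a-5p spanned 0.80 (SD 0.25), that of miR-99b to let-7e 1.06 (SD 0.33) and that of miR-125a-5p to let-7e 1.13 (SD 0.32). Between the family members miR-99a and miR-99b, which share a seed and lie in different clusters, the log ratio spanned 4.83 (SD 1.78). The 2 miR-125 members differed less, with a span of 0.94 (SD 0.29). In the chromosome 9 cluster the log ratio of miR-100 to let-7a had an SD of 0.19 and that of miR-100 to miR-125b-5p an SD of 0.44 and a span of 1.56. Both miR-100 and let-7a varied little by themselves (pooled SD 0.14 and 0.19), so the first value does not show that they moved together, and let-7a has further genomic copies.

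**Figure D4:**
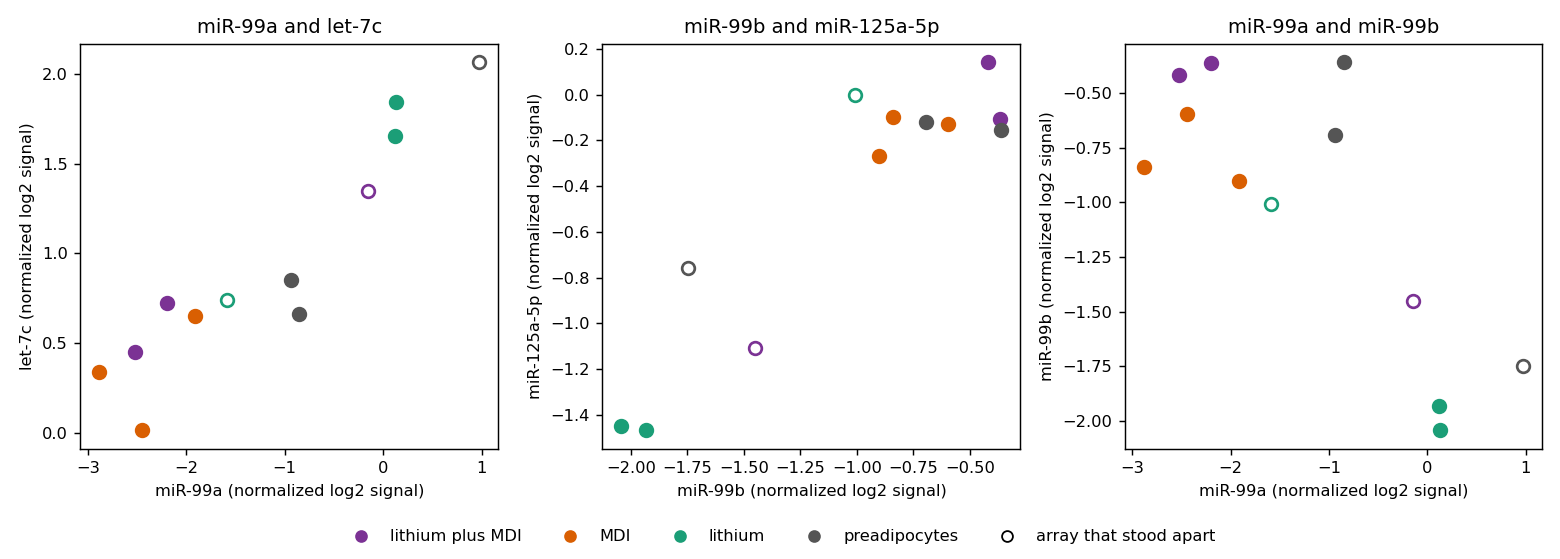
Normalized log2 signal of miR-99a against let-7c, miR-99b against miR-125a-5p and miR-99a against miR-99b on the 12 arrays, coloured by group, with the 3 arrays that stood apart as open symbols. let-7c is higher where miR-99a is higher, while the 4 arrays lowest for miR-99b are the 4 highest for miR-99a.

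Likeness to the other members depended on the same 4 arrays to unequal degrees. By r over the 12 arrays, miR-99b was most like miR-31 (0.95, and 0.87 within the other 8 arrays), miR-23a (0.92, and 0.87 within the 8) and miR-28 (0.91, and 0.76 within the 8). For miR-125a-5p the highest non-members were miR-34a (0.89), miR-674* (0.88) and let-7e (0.86), but within the 8 arrays these were 0.052, 0.36 and 0.099. For miR-125b-5p they were miR-34a (0.77), miR-221 (0.76) and miR-23a (0.76), and within the 8 arrays -0.22, -0.24 and 0.29. For miR-100 they were miR-199b* (0.86, and 0.83 within the 8), miR-199a-5p (0.66, and 0.57) and miR-199a-3p (0.61, and 0.49), all on its brighter probe. Members were left out of these lists. Over the 12 arrays r of miR-125a-5p was 0.912 with miR-99b, 0.890 with miR-125b-5p, -0.051 with miR-100 and -0.78 with miR-99a. Between miR-125b-5p and miR-99b it was 0.77. Without the 2 arrays farthest out on either miRNA of a pair, miR-125a-5p had r = 0.80 with miR-99b and 0.65 with miR-125b-5p. Between miR-125b-5p and miR-99b r was then 0.40. Without the 3 arrays that stood apart these values were 0.963, 0.958 and 0.951. Pairs of members were not examined within the 8 arrays, so they cannot be ranked against the non-members there.

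Of the let-7 list (let-7a to let-7g, let-7i and miR-98), all 9 were tested and none passed an adjusted p of 0.05 in any comparison. In MDI against preadipocytes 8 of the 9 were lower, with a median of -0.26, where 43.3% of all tested miRNAs were lower. In lithium against preadipocytes 7 were lower, with a median of -0.29, where 54.8% of all tested were. The let-7e difference in lithium against preadipocytes was -1.13 (SE 0.39, adjusted p = 0.114), in the direction of miR-99b and miR-125a-5p. In lithium plus MDI against MDI all 9 were higher, with a median of 0.38 beside 0.18 for all tested, of which 72.6% were higher. In lithium plus MDI against lithium 7 of the 9 were higher, with a median of 0.48 beside 0.39 for all tested, of which 71.3% were higher, a share near that of the list. There miR-98, at 1.18, had the lowest adjusted p of the list in any comparison (limma adjusted p = 0.0728). In the same comparison let-7c, at -0.57 (adjusted p = 0.321), was on the side of miR-99a. The interaction was above 0 for 8 of the 9, where 65.6% of all tested were, with a median of 0.89 beside 0.26 for all tested. Its lowest adjusted p was at let-7i (1.33, limma adjusted p = 0.0865).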

How the data were processed

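Per the file headers, Agilent Feature Extraction 10.5.1.1 background-subtracted the deposited scanner intensity of each spot (the submitters' processing notes name 9.5.3); these intensities were not normalized between arrays. The authors also deposited a value table, read as log2 (r at least 0.991 with log2 total gene signal; column medians 0.00175 to 0.0958); its treatment of signals near background is not given in the sources used here, and it served as an alternative. Outlier spots were dropped and spots averaged per probe. Scaling divided an array's signals by their 75th percentile, taken over 181 mouse probes that all 12 arrays detected (264 to 780), a floor was set at the 5th percentile of detected values (log2 -4.97), and log2 was taken. The brightest probe stood for a miRNA, and the 157 miRNAs that at least 1 group detected on all 3 of its arrays were tested. limma 3.58.1 in R 4.3.3 fitted 4 group means without a block (moderated two-sided test, Benjamini-Hochberg over 157 miRNAs, threshold 0.05); matplotlib 3.10.9 drew the figures. The fit was tested on simulated data.

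The number of arrays limits precision: the median SE was 0.335 between groups and 0.474 for the interaction. Of same-numbered arrays in different groups, 9 of 18 pairs had deviations correlated above 0.1 (median 0.061), against 11 of 36 differently numbered pairs (median -0.063). As not every same-numbered pair did, the numbers were not taken to pair the arrays. That rule is strict and could miss a real pairing, so a replicate block was run as an alternative. Named were the 5 members, the 3 tested non-members most correlated with each, the let-7 list, opposite strands, seed sharers and cell type markers. Members and lists were chosen with earlier results of these data known. The alternatives were other scalings, floors, filters, background, probe summaries, the authors' table, slide and replicate blocks, the groups in the fit, the exact permutation test and leaving arrays out; the within-slide-1 fit was added after seeing the data.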

Additional observations from a re-analysis of the deposited data

How the results depend on the processing

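The count of members past the threshold was 0 in every comparison on all 12 arrays, but not in all settings. For MDI against preadipocytes it was 2 with the 75th percentile over all mouse probes, 3 without scaling, 1 with only the 2 groups in the fit and 1 without the 3 arrays that stood apart. Of all tested miRNAs, 30.6%, 39.5%, 7.01% and 24.2% passed there. For lithium against preadipocytes those settings gave 4, 4, 0 and 4. Of all tested, 49.7%, 47.1%, 8 of 157 and 52.9% passed. Lithium plus MDI against lithium gave 4 without those 3 arrays, where 56.1% of all tested passed. The interaction gave 4 without scaling and 3 without those 3 arrays, where 38.9% and 43.9% of all tested passed. Leaving out 1 array at a time gave 0 to 1, 0 to 1 and 0 to 2 members for MDI against preadipocytes, lithium against preadipocytes and lithium plus MDI against lithium, and 0 for the interaction and for lithium plus MDI against MDI. The count of all tested miRNAs past the threshold ran from 0 to 62 over the alternatives for MDI against preadipocytes (5 on all arrays), 0 to 83 for lithium against preadipocytes (10), 0 to 88 for lithium plus MDI against lithium (0), 0 to 69 for the interaction (0) and stayed at 0 for lithium plus MDI against MDI.

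Signs turned for differences that were mostly small, and for miR-99a in the interaction (0.97 on all arrays). In MDI against preadipocytes, the all-probe percentile gave -0.66 for miR-99b, -0.63 for miR-125a-5p and -0.77 for miR-125b-5p, and no scaling gave -0.75, -0.72 and -0.86 in that order. Without the 3 arrays miR-99b was -0.25 and miR-125a-5p -0.029. With 1 array left out, miR-99b ran from -0.25 to 0.44, miR-125a-5p from -0.029 to 0.29 and miR-125b-5p from -0.072 to 0.12. In lithium against preadipocytes, miR-99a was 0.098 in the authors' deposited table, 1.02 without the 3 arrays and -0.51 to 0.45 with 1 left out. In lithium plus MDI against lithium, miR-100 was -0.11 with the all-probe percentile, -0.30 with quantile normalization, -0.21 in the authors' deposited table and -0.017 to 0.074 with 1 array left out, and miR-125b-5p was -0.035 with quantile normalization and -0.00683 in the authors' deposited table. In lithium plus MDI against MDI, miR-99b was -0.20, -0.18, -0.10 and -0.21 with the all-probe percentile, quantile normalization, the scanner's total signal and the authors' deposited table, and miR-100 was -0.057, -0.093, -0.00859 and -0.19. There miR-125b-5p was 0.064 without scaling and 0.066 without the 3 arrays, and miR-125a-5p 0.18 without them. With 1 array left out miR-99b ran from -0.16 to 0.39, miR-125a-5p from -0.44 to 0.18 and miR-125b-5p from -0.27 to 0.066. For the interaction, miR-125b-5p was -0.054 with quantile normalization and -0.22 in the authors' deposited table, and miR-99a was -0.96 without the 3 arrays. Beyond the alternatives' own construction, the cause was not tested.

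With the replicate number as a block, no member passed in any comparison: miR-99a in MDI against preadipocytes stayed at -2.14 (adjusted p = 0.0585) and miR-99b in lithium plus MDI against lithium at 0.92 (adjusted p = 0.0633). Over all tested miRNAs that block moved the counts to 5, 9, 16, 0 and 4 in the order of the comparisons in the report, and 4 of the 12 arrays matched best an array with their own number. Signal over background limits the opposite strands and miR-351, which lay at or near the floor.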

Other observations

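miR-351, on chromosome X, carries the miR-125 seed but not the rest of the sequence, and is the one other miRNA on the array with a seed of either family. It lay at or near the floor of -4.97, between -4.71 and -4.31 on the lithium plus MDI arrays, -4.97 and -4.09 on the MDI arrays, -4.91 and -4.44 on the lithium arrays, and -4.97 and -4.34 on the preadipocyte arrays. Its difference was 0.34 in MDI against preadipocytes (limma adjusted p = 0.489) and 0.099 in lithium against preadipocytes (adjusted p = 0.866), beside 0.038 and -0.57 for miR-125b-5p.

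Of the members' opposite strands on the array, miR-125b* and miR-125b-3p were detected on no array and miR-99b* on 1. miR-125a-3p was tested and lay between -4.66 and -3.34 on the lithium plus MDI arrays, -4.97 and -3.43 on the MDI arrays, -4.97 and -4.73 on the lithium arrays, and -4.97 and -4.39 on the preadipocyte arrays. All 3 lithium plus MDI arrays lay above the 3 lithium arrays, a difference of 0.85 (SE 0.40, adjusted p = 0.160) beside 0.61 for miR-125a-5p, and higher without overlap held for 26.1% of all tested miRNAs. With 2 of the lithium values at the floor, that difference depends on where the floor was set.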
